A study of Rattus norvegicus with 24 samples.

Results

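The transcription factors Bcl11b, Foxp1, Foxp2, Rarb, Ebf1, Isl1, Meis2, Six3, Dlx5 and Dlx6, which mark medium spiny neurons or the cells that give rise to them, were taken by symbol from the deposited expression table. Of the 10 symbols, 9 had a row, each a single row of its own, among the 17711 rows of the table, and Dlx6 was not analysed here because no row carried its symbol. Striatum and whisker follicle RNA was sequenced from male Sprague-Dawley rats that self-administered methamphetamine dissolved in saline (MA) or saline alone (SA). All rats had first been trained to press a lever for food, were then operated on, and took part in daily 2 h sessions for 16 days, with 0.05 mg/kg of MA per intravenous infusion in the MA group. Each treatment had 6 libraries in each tissue, 24 in all, each from a rat of its own within the tissue, and the age of the rats is not given in the sources used here.

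Medium spiny neurons are the GABAergic projection neurons that make up most of the striatum. They arise from the lateral ganglionic eminence and divide into direct-pathway cells, which carry the dopamine receptor Drd1 and project to the substantia nigra and internal pallidum, and indirect-pathway cells, which carry Drd2 and project to the external pallidum. Much of what is known of the factors that set these fates comes from mice: Dlx5, Dlx6 and Meis2 act in the progenitors and their progeny, Bcl11b and Foxp1 in both kinds of neuron, Ebf1 and Isl1 in the direct-pathway cells and Six3 in the indirect-pathway cells. Several of the same factors also work in skin, where Foxp1 takes part in the hair cycle, and Dlx genes in the forming hair follicle.

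Values are FPKM, the fragments counted for a transcript relative to its length in kilobases and to the mapped fragments of its library, and fold changes are on the log2(FPKM + 1) scale, which understates changes of low genes. A library is named by the index of 0 to 5 that its column carries, as in MA library 4. A gene was called when its limma p, adjusted over all genes tested by the Benjamini-Hochberg method, was under 0.05 and its fold was at least 1.5 on that scale. FPKM values carry no counts, so the depth behind each is unknown. The worth of 1 fragment was estimated from the most common ratio of low values between libraries. It came to 0.835 to 1.13 times that in striatum SA library 0 among striatum libraries. Among whisker follicle libraries, linked through follicle SA library 0, it came to 1.68 to 3.52 times. Only part of the low genes lay at that ratio, 70 of 270 in striatum MA library 0, for example. FPKM summed to 348717 to 418892 in striatum libraries and 774567 to 1524572 in follicle libraries. The striatum libraries carried all 14 genes of a list shared by medium spiny neurons, with a summed level of 3020 to 7092 FPKM in MA and 2900 to 7499 FPKM in SA and no gene of the list at 0 in every library.

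The factors spanned a wide range of levels per length in the striatum, and their order was the same in MA and SA. Meis2, a homeodomain factor of the striatal progenitor zone and its neurons, was the most abundant, at 92.1 ± 20.8 FPKM in MA and 84.5 ± 23.1 FPKM in SA (SD, n = 6 each). Bcl11b, the zinc-finger factor also called Ctip2, followed with 46.5 ± 12.4 FPKM in MA and 44.8 ± 16.4 FPKM in SA. The forkhead repressor Foxp1 had 31.3 ± 12.7 FPKM in MA and 30.8 ± 13.0 FPKM in SA. Meis2 thus stood at the 95.6th percentile of all rows in MA and the 95.4th in SA, and Foxp1 at the 86.9th in MA and the 87.0th in SA. Rarb, a nuclear receptor for retinoic acid, had 28.2 ± 6.14 FPKM in MA and 27.2 ± 9.30 FPKM in SA. Dlx5, a homeodomain factor of developing GABAergic neurons, had 19.4 ± 5.08 FPKM in MA and 18.2 ± 2.90 FPKM in SA, and the homeodomain factor Six3 had 11.3 ± 2.78 FPKM in MA and 10.5 ± 3.05 FPKM in SA. The last 3 were lower than these. Foxp2, the forkhead relative of Foxp1, had 6.66 ± 1.72 FPKM in MA and 6.28 ± 1.72 FPKM in SA. Isl1, a LIM-homeodomain factor that cholinergic neurons also use, had 5.51 ± 1.74 FPKM in MA and 5.30 ± 1.04 FPKM in SA. Ebf1, a helix-loop-helix factor named for early B cells, had 2.27 ± 1.06 FPKM in MA and 2.34 ± 0.684 FPKM in SA. Ranges of neighbours in this order overlapped, except that every MA library had more Meis2 than any had Bcl11b, and every SA library more Isl1 than any had Ebf1. Within a library the order held more often: Meis2 exceeded Bcl11b and Bcl11b exceeded Foxp1 in all 12, while Foxp1 exceeded Rarb in 5 of 6 MA and 4 of 6 SA libraries.

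The start regions of 5 of the 10 factors were found in a RefSeq table of the GRCr8 rat assembly, each as a window of 300 bases with 250 before and 50 after the annotated start. Rarb is shown because its window holds the repeat through which retinoic acid receptors are known to act on this gene, and Foxp1 and Six3 because their windows hold the core of a forkhead or a MEIS motif. The Rarb window lies at chr15:11336142-11336441 on the plus strand, the Foxp1 window at chr4:133353231-133353530 on the minus strand and the Six3 window at chr6:14796207-14796506 on the minus strand. The capitals mark the match.
Rarb: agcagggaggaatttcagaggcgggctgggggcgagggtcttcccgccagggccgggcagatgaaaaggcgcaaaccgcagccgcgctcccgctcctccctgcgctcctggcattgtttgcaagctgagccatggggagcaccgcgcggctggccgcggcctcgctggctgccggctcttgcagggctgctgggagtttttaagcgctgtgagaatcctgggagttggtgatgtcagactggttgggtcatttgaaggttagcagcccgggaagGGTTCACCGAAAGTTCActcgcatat
Foxp1: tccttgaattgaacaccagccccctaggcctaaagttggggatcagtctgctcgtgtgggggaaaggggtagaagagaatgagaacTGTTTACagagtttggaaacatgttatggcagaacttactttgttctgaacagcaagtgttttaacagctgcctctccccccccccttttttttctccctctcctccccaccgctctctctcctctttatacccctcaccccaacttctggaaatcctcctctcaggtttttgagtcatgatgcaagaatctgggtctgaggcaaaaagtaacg
Six3: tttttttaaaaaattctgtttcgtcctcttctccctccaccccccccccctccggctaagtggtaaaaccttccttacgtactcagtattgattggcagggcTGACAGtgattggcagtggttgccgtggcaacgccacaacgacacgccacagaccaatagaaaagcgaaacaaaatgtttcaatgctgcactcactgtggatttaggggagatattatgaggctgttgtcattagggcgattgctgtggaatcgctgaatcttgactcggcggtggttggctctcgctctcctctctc
Motifs were searched on both strands in the member windows and in all 33469 windows of the table. The direct repeat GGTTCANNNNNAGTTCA, which contains the half-sites GGTTCA and AGTTCA, stood at bases 275 to 291 of the Rarb window and in 3 windows of the table, or 0.00896%. The half-sites alone were common, GGTTCA in 11.7% and AGTTCA in 14.5% of all windows, and another half-site, AGGTCA, was in 16.2% and in none of the 5 member windows. The forkhead core GTAAACA matched bases 87 to 93 of the Foxp1 window on the other strand and 3.78% of all windows, and the MEIS core TGACAG matched bases 103 to 108 of the Six3 window and 19.0% of all windows. The homeodomain core TAATTA, in 5.36% of all windows, the core TGATAC of the Six3 family, in 5.81%, and the EBF core TCCCNNGGGA, in 0.834%, had no match in the member windows. The Ebf1 and Isl1 windows held none of the motifs searched. G and C made up 63.0% of the Rarb window, 60.3% of the Isl1 window, 49.7% of the Six3 window, 48.3% of the Foxp1 window and 37.0% of the Ebf1 window, against a median of 51.7% over all windows. A match is a description of the letters in this window.

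Most of the spread of the factors in the striatum lay between libraries of the same treatment, and 4 libraries stood apart. On the list shared by medium spiny neurons, MA libraries 4 and 5 and SA libraries 3 and 4 had the lowest scores of the 12, where a score is the median deviation of a list from its mean over the libraries on log2(FPKM + 1). They scored -0.10 and -0.91 in MA and -0.52 and -0.92 in SA, and the others 0.14 to 0.47 in MA and 0.13 to 0.46 in SA. By the summed level of this list, MA library 4 was not low. It had 6352 FPKM, against 5972 FPKM in MA library 0 and 5778 FPKM in SA library 2. Their scores over the 9 factors were -0.31 and -0.40 in MA and -0.40 and -0.60 in SA, also the 4 lowest of the 12. The 10 other striatal lineage factors tested had their 4 lowest scores there too, -0.21 and -0.31 in MA and -0.12 and -0.28 in SA, and the 17 paralogs and cofactors tested had their 2 lowest in MA library 4 (-0.17) and SA library 3 (-0.18). These 4 libraries were picked by the related list, and how many of all genes part them likewise was not counted. Bcl11b, Foxp1, Rarb (24.2 against 24.9 FPKM at the closest), Ebf1 and Meis2 were each lower in all 4 than in the remaining 8. Bcl11b, for example, had 36.7 and 28.1 FPKM in MA libraries 4 and 5 and 27.3 and 23.3 FPKM in SA libraries 3 and 4, against 45.8 to 63.2 FPKM in the rest. Foxp1 had 22.1 and 11.9 FPKM in the MA pair and 18.0 and 12.7 FPKM in the SA pair, against 32.7 to 48.3 FPKM in the rest. Meis2 had 71.3 and 63.8 FPKM in the MA pair and 59.6 and 53.6 FPKM in the SA pair, against 86.7 to 119 FPKM in the rest. Ebf1 went furthest down in MA library 5, at 0.434 FPKM, against 2.27 to 3.24 FPKM in the 8 libraries outside the 4. In this bulk RNA, fewer medium spiny neurons and less of each RNA per neuron cannot be told apart.

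The other factors followed this pattern in part. Foxp2, Six3 and Dlx5 had 3 of their 4 lowest values in the same libraries. Foxp2 was high in MA library 5, at 7.65 FPKM against a median of 6.83 FPKM in the libraries outside the 4. Dlx5 in MA library 5 (19.6 FPKM) and Six3 in SA library 4 (9.56 FPKM) were not among their 4 lowest values. Both lay below the medians outside the 4, which were 20.2 FPKM for Dlx5 and 13.1 FPKM for Six3. The lowest Six3, 7.30 FPKM, was in SA library 2. Isl1 did not follow the pattern. MA library 5 had its highest value of all, 7.73 FPKM, SA library 4 had 6.25 FPKM and SA library 3 5.07 FPKM. Only MA library 4 was low in Isl1, at 2.56 FPKM. Chat, the acetylcholine-synthesizing enzyme of cholinergic neurons, chosen after its values were seen, also had its highest values in SA library 4 (10.3 FPKM) and MA library 5 (8.55 FPKM), though MA library 0, with the lowest Chat at 2.53 FPKM, had 6.27 FPKM of Isl1. The members' spread within a treatment was wide for striatal genes. The log2 SD within groups was 0.69 for Foxp1 and 0.50 for Bcl11b, at the 97.9th and 93.3rd percentiles of the 10607 genes tested, and the smallest, 0.33 for Dlx5, was at the 77.6th, against a median of 0.21 over all genes.

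The same 4 libraries also differed in genes that are not of medium spiny neurons. Ngfr, the low-affinity neurotrophin receptor of basal forebrain cholinergic neurons, had 10.2 FPKM in MA library 5 and 8.28 and 14.5 FPKM in SA libraries 3 and 4, and no more than 1.44 FPKM elsewhere. Oxt, the hypothalamic peptide oxytocin, reached 29.0 and 73.5 FPKM in SA libraries 3 and 4 and 0 to 5.40 FPKM in the other 10. Over 8 such genes of basal forebrain, pallidum and hypothalamus, a list chosen after its values were seen, the score was 0.62 in MA library 5 and 1.43 and 1.94 in SA libraries 3 and 4, but -0.01 in MA library 4, and the summed level was 32.3 to 158 FPKM in MA and 25.7 to 224 FPKM in SA, with no gene of the list at 0 in every library of either group. MA library 4 stood out instead on the lists for astrocytes (0.71), microglia (0.80) and endothelium (0.84), where it had the highest score of the 12. The part of these genes in the low levels of the factors was not tested.

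**Figure D1:**
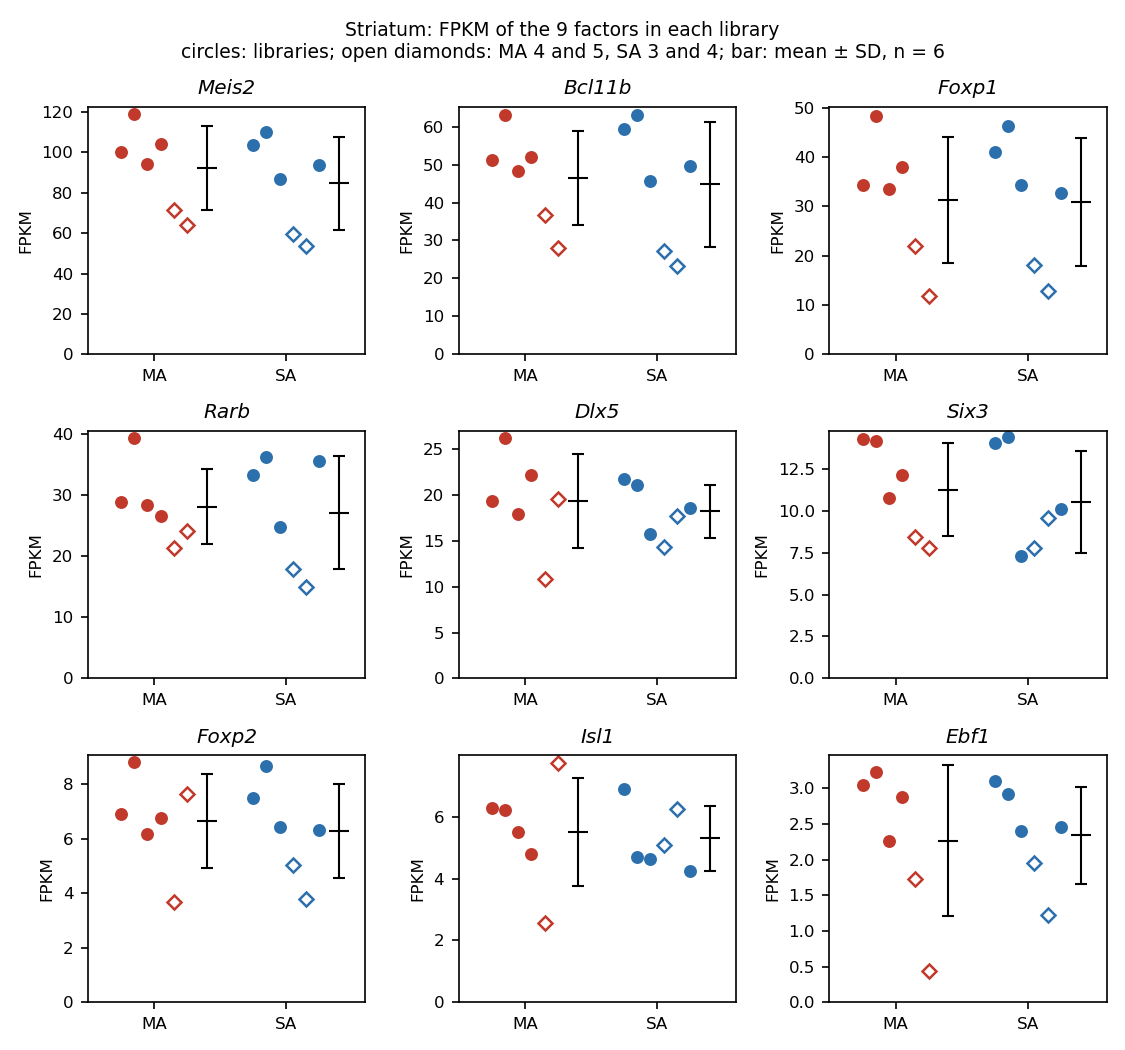
FPKM (vertical axis) of each factor in the 12 striatum libraries, MA left of SA, 1 point per library in the order of its index, with the mean and SD (n = 6) beside each group. The open diamonds, MA libraries 4 and 5 and SA libraries 3 and 4, are the lowest points for Bcl11b, Foxp1, Rarb, Ebf1 and Meis2 but not for Isl1, whose highest value is the 7.73 FPKM of MA library 5.

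**Figure D2:**
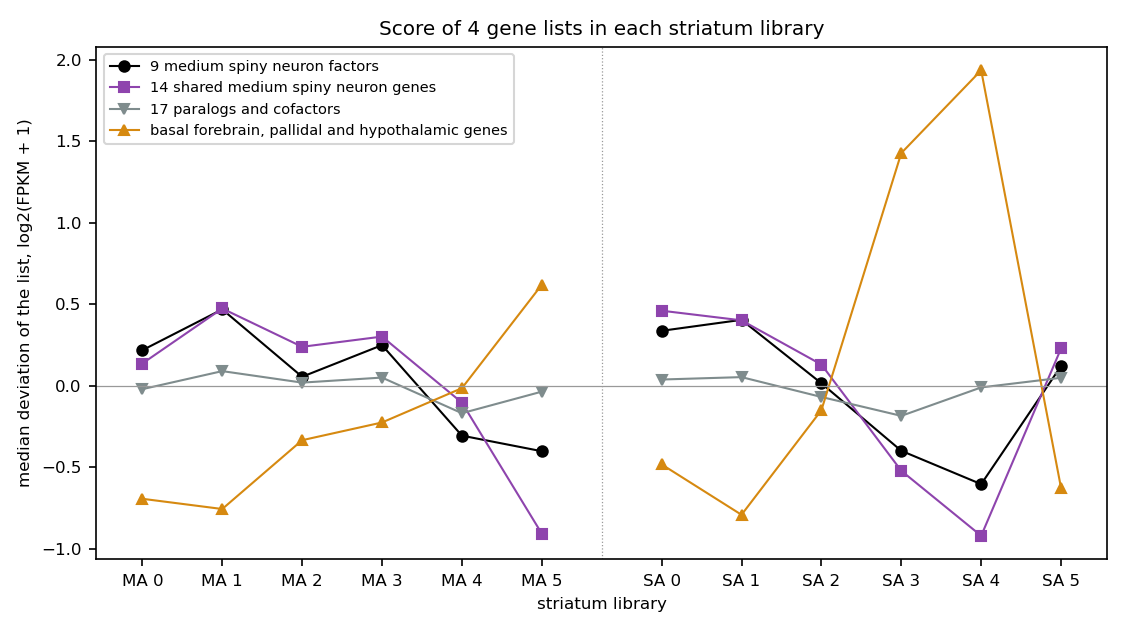
Score (median deviation on log2(FPKM + 1)) of 4 gene lists in each striatum library, the 6 MA libraries left of the 6 SA libraries. The factors and the shared medium spiny neuron genes dip together in MA libraries 4 and 5 and SA libraries 3 and 4, the basal forebrain, pallidal and hypothalamic genes peak at 1.94 in SA library 4, and paralogs and cofactors run from -0.18 in SA library 3 to 0.09 in MA library 1.

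Across the 12 striatum libraries, with the treatment means removed, the factors went together to differing degrees. Bcl11b and Meis2 had a Pearson correlation of 0.993 on log2(FPKM + 1), Bcl11b and Foxp1 0.977, Foxp1 and Ebf1 0.929 and Bcl11b and Rarb 0.913. Ebf1 and Rarb had 0.634, less than Foxp2 and Rarb (0.819), Foxp2 and Dlx5 (0.803) or Meis2 and Six3 (0.767). With Bcl11b, Six3 had 0.748, Foxp2 0.697 and Dlx5 0.541. Isl1 had values near 0 or below with several factors, -0.06 with Bcl11b, -0.13 with Foxp1 and 0.01 with Meis2, while it had 0.678 with Dlx5 and 0.494 with Foxp2. Among all 10607 genes, the one most like Bcl11b was Mn1, at 0.994, with Meis2 next. For the other factors it was Diras2 for Foxp1 (0.995), Ptprj for Foxp2 (0.950), Tnrc18 for Rarb (0.973), Sh3rf2 for Ebf1 (0.971), Ric3 for Isl1 (0.951), Bcl11b for Meis2 (0.993), Irf2bpl for Six3 (0.947) and B4galt6 for Dlx5 (0.948). These are descriptions over 12 libraries that share the 4 low ones and the scaling of each library.

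Whether the factors differed after MA self-administration was asked first in the striatum, where no factor passed the test. None of the 9 was called and none had an unadjusted p under 0.05, against 0.00943% (1 gene) and 8.26% of the 10607 genes tested. MA and SA libraries overlapped for every factor, and 0.358% of genes had no overlap. The differences were small and 8 of the 9 lay above 0, with a median of 0.07 against 0.00 over all genes, where 50.5% lay above 0.

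Among the factors of both kinds of medium spiny neuron, Bcl11b had 28.1 (lowest), 49.7 (median) and 63.1 (highest) FPKM in MA libraries, against 23.3, 47.7 and 63.2 FPKM in SA libraries. The groups covered the same range. The log2 fold change was 0.10 (SE 0.26, adjusted p = 0.937 by limma). Foxp1 had 11.9, 33.98 and 48.3 FPKM in MA, against 12.7, 33.5 and 46.2 FPKM in SA, with a log2 fold change of 0.03 (SE 0.35, limma adjusted p = 0.986). Its 95% interval was the widest of the 9, allowing ratios of 0.601 to 1.73. Meis2 had 63.8, 97.1 and 119 FPKM in MA, against 53.6, 90.2 and 110 FPKM in SA, and the largest estimate of the 9, 0.14 (SE 0.20, limma adjusted p = 0.870). Its interval, 0.817 to 1.48 as a ratio, covered both directions. Rarb had 21.4, 27.6 and 39.3 FPKM in MA, against 14.9, 29.1 and 36.2 FPKM in SA (0.10, SE 0.22, limma adjusted p = 0.920). Here the median was lower in MA while the mean of log values was higher. Dlx5 had 10.9, 19.5 and 26.2 FPKM in MA, against 14.3, 18.2 and 21.8 FPKM in SA (0.05, SE 0.17, limma adjusted p = 0.950).

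The factors tied to 1 of the output pathways did not pass the test either. Ebf1 had 0.434, 2.57 and 3.24 FPKM in MA, against 1.22, 2.43 and 3.10 FPKM in SA, and was the only factor with an estimate below 0 (-0.09, SE 0.25, limma adjusted p = 0.941). Isl1 had 2.56, 5.85 and 7.73 FPKM in MA, against 4.25, 4.88 and 6.90 FPKM in SA (0.01, SE 0.19, limma adjusted p = 0.990). Both of its extreme values were MA libraries. Foxp2, which in mice is richer in direct-pathway cells, had 3.67, 6.83 and 8.81 FPKM in MA, against 3.79, 6.36 and 8.64 FPKM in SA (0.07, SE 0.19, limma adjusted p = 0.937). Six3, of the indirect pathway, had 7.77, 11.5 and 14.3 FPKM in MA, against 7.30, 9.84 and 14.4 FPKM in SA (0.10, SE 0.19, limma adjusted p = 0.910). The 95% intervals over the 9 factors together reached down to a ratio of 0.601 and up to 1.73, both for Foxp1. Within libraries, the log2 ratio of Foxp2 over Foxp1 averaged -1.99 ± 0.70 in MA and -2.04 ± 0.35 in SA (SD, n = 6 each, exact permutation p = 0.900, two-sided), and that of Ebf1 over Six3 averaged -1.96 ± 0.32 in MA and -1.77 ± 0.33 in SA (n = 6 each, exact permutation p = 0.368).

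Leaving out the 4 low libraries turned the sign of the small estimates for Bcl11b (-0.019), Foxp1 (-0.0028), Foxp2 (-0.010), Rarb (-0.076) and Ebf1 (0.051), with no factor called, and left Six3 at 0.19, Isl1 at 0.14, Dlx5 at 0.14 and Meis2 at 0.08. With the score of the shared medium spiny neuron list in the fit, the SE of Foxp1 was 0.07 in place of 0.35 and that of Bcl11b 0.08 in place of 0.26, and the estimates were -0.05 for Foxp1, 0.04 for Bcl11b and 0.10 for Meis2 (SE 0.07, limma adjusted p = 0.575). Both of these fits were chosen after the data were seen. Among markers of other cells none was called, while 4 of 6 astrocyte genes, 3 of 6 microglial genes and 3 of 4 erythrocyte genes had a higher level in MA at an unadjusted p under 0.05, as had 571 of the 10607 genes tested. Summed levels were 704 to 1263 FPKM in MA and 702 to 914 FPKM in SA for astrocytes. For microglia the sums were 153 to 441 FPKM in MA and 168 to 263 FPKM in SA, and for erythrocytes 631 to 5657 FPKM in MA and 354 to 902 FPKM in SA, where 1 of the 5 listed rows was at 0 in every library. Their part in the values of the factors was not tested.

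No relative or partner of the factors passed the test in the striatum. Of 29 paralogs and cofactors listed, 17 were tested, 7 lay above 0 with a median of -0.03, and none was called or had an unadjusted p under 0.05. Those with the smallest p included Rarg, another retinoic acid receptor (0.22, SE 0.11, limma adjusted p = 0.630), and Rxra, the shared partner of such receptors (0.17, SE 0.09, limma adjusted p = 0.641). Of 10 other striatal lineage factors tested, 5 lay above 0 and Ikzf1, a zinc-finger factor that also marks blood cells, had an unadjusted p under 0.05 (0.42, SE 0.12, limma adjusted p = 0.577).

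**Figure D3:**
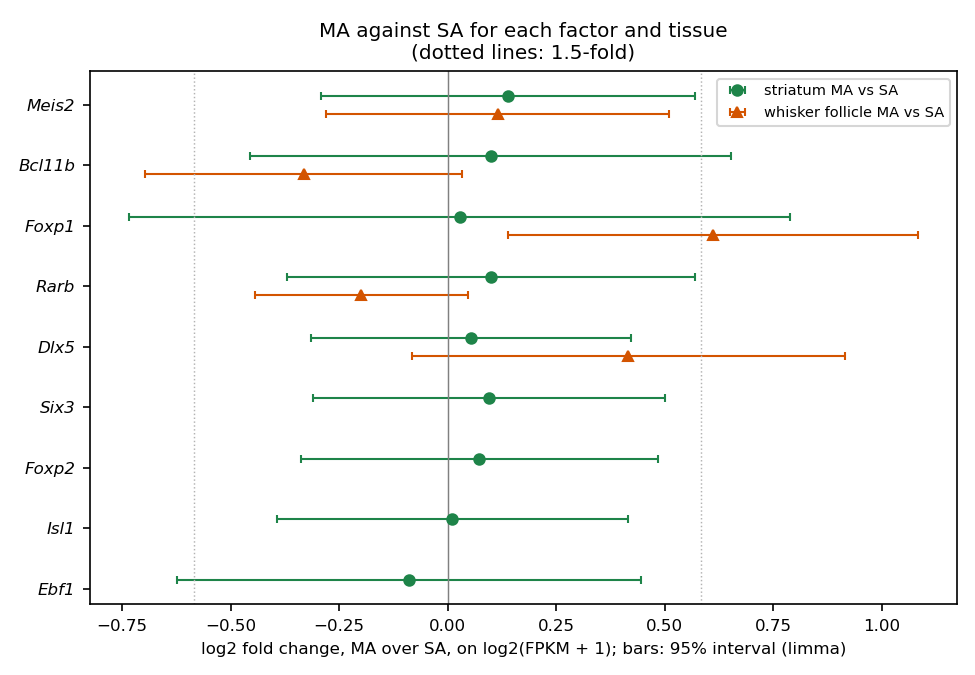
Log2 fold change of MA over SA on log2(FPKM + 1) with its 95% interval from limma, for the 9 factors in the striatum (circles) and the 5 tested in the whisker follicle (triangles). All striatal intervals cross 0, and Foxp1 in the follicle (0.61) has the only interval that does not.

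In the whisker follicle, 5 of the 9 factors passed the filter of a mean of at least 1 FPKM, and the order of their levels was another one. Foxp1 led with 32.0 ± 3.31 FPKM in MA and 22.1 ± 10.7 FPKM in SA (SD, n = 6 each). Dlx5 had 19.6 ± 4.72 FPKM in MA and 14.9 ± 5.60 FPKM in SA, and Meis2 15.97 ± 4.58 FPKM in MA and 14.5 ± 3.12 FPKM in SA. These 3 were far above the next. Bcl11b had 1.51 ± 0.648 FPKM in MA and 2.09 ± 0.332 FPKM in SA, and Rarb 1.66 ± 0.161 FPKM in MA and 2.07 ± 0.339 FPKM in SA. The levels of Dlx5 and Meis2 overlapped in both groups, as did those of Bcl11b and Rarb, and Foxp1 exceeded every Dlx5 value in MA only.

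The remaining 4 factors were at or near 0 in the follicle. Isl1 was listed at 0 in all 12 libraries. Ebf1 was listed at 0 in 11, with 0.0827 FPKM in MA library 0. Six3 was listed at 0 in every MA library and in 4 of 6 SA libraries, with 0.133 FPKM in SA library 1 and 0.244 FPKM in SA library 2. Foxp2 was listed at 0 in 4 MA and 3 SA libraries and did not exceed 0.0341 FPKM in MA and 0.0877 FPKM in SA. If the lowest value of each gene, scaled by library, is 1 fragment, these values stand for 1 fragment of Ebf1, 1 and 2 of Six3 and 1 to 3 of Foxp2. The striatum libraries then held about 16 to 119 of Ebf1, 145 to 299 of Six3 and 348 to 841 of Foxp2. The unit rests on 1 low value for Ebf1, 2 for Six3 and 5 for Foxp2. Striatal estimates lay within 0.11 of a whole number in 12 of 12 libraries for Ebf1, 3 for Six3 and 2 for Foxp2. Those of Six3 and Foxp2 are therefore rough. The highest Foxp2 of the follicle, 0.0877 FPKM, was in SA library 5. That library also had 77.0 FPKM summed over the oligodendrocyte genes, against at most 15.1 FPKM in any other follicle library. Its sum over the shared medium spiny neuron genes was 36.7 FPKM, against at most 12.9 FPKM. Whether brain RNA was present in this library was not tested.

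MA and SA follicles differed in no called gene, so that 0% of the 9138 genes tested and none of the 5 factors was called. At an unadjusted limma p under 0.05 there were 10.4% of all genes and 1 of the 5 factors, Foxp1, and 0.482% of genes but none of the 5 factors had no overlap between groups. Foxp1 had 27.7, 31.2 and 37.4 FPKM (lowest, median and highest) in MA libraries, against 12.7, 18.9 and 43.2 FPKM in SA libraries. The overlap came from SA library 0 alone, whose 43.2 FPKM was above every MA library, while the other 5 SA libraries, with at most 21.4 FPKM, were below every MA library. The log2 fold change was 0.61 (SE 0.22, limma adjusted p = 0.465), and the exact permutation test gave p = 0.0260, unadjusted, where 6 against 6 libraries can give no less than 0.00216. Without SA library 0 it was 0.82 (SE 0.13, limma adjusted p = 0.0130) and Foxp1 was 1 of 1219 genes called, or 13.5% of those tested, of which 671 were higher and 548 lower in MA.

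Dlx5 had 13.8, 19.9 and 25.2 FPKM in MA follicles, against 8.65, 13.9 and 22.2 FPKM in SA follicles, with a log2 fold change of 0.42 (SE 0.23, limma adjusted p = 0.466). Its groups overlapped, with 3 MA libraries above every SA library. Bcl11b had 0.872, 1.37 and 2.50 FPKM in MA, against 1.63, 2.11 and 2.44 FPKM in SA (-0.33, SE 0.17, limma adjusted p = 0.465). Rarb had 1.504, 1.64 and 1.93 FPKM in MA, against 1.53, 2.19 and 2.38 FPKM in SA (-0.20, SE 0.11, limma adjusted p = 0.466, exact permutation p = 0.0303 unadjusted). Both estimates were below 0 while those of Foxp1 and Dlx5 were above it. Meis2 had 10.97, 14.5 and 22.7 FPKM in MA, against 10.9, 14.3 and 19.3 FPKM in SA (0.12, SE 0.18, limma adjusted p = 0.758). The median over the 5 was 0.12, against -0.01 over all genes.

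Hair keratins, which the cells of the growing hair shaft make, were unevenly distributed over the same libraries. Their score over 9 genes was 0.09 to 0.86 in MA libraries and -1.29 to 0.04 in 5 SA libraries, and 0.86 in SA library 0, the library with the most Foxp1. The summed level was 34312 to 74921 FPKM in MA and 27011 to 90348 FPKM in SA. By this sum the order was another one. SA library 4 (90348 FPKM) and SA library 1 (80248 FPKM) were above SA library 0 (77644 FPKM) and every MA library. In every MA library and in SA library 0, 1 of the 9 genes was listed at 0, and none was in the other 5 SA libraries. With this score in the fit, chosen after the data were seen, the estimate was 0.16 (SE 0.15, limma adjusted p = 0.994) for Foxp1. It was -0.07 for Dlx5, -0.22 for Bcl11b, -0.22 for Rarb and 0.21 for Meis2, and no gene was called. Every MA library scored above 5 of the 6 SA libraries, so this fit cannot part the score from the treatment. Bmp4, a signal of the hair follicle and the one gene of the dermal papilla list that was tested, had 49.6 to 117 FPKM in MA and 14.9 to 133 FPKM in SA, with the 133 FPKM in SA library 0. Other lists set SA library 0 apart as well. The 1 adipocyte gene tested had a score of -1.44 in SA library 0, 0.50 to 1.09 in the other SA libraries and -1.40 to 0.40 in MA libraries, with a summed level of 2959 to 10283 FPKM in MA and 2871 to 16622 FPKM in SA over the 4 genes listed, of which 2 were at 0 in every MA and 3 in every SA library. The 3 erythrocyte genes tested had -4.02 in SA library 0, 0.82 to 2.56 in the other SA libraries and -3.11 to 2.73 in MA libraries, with a summed level of 6.05 to 487 FPKM in MA and 1.33 to 446 FPKM in SA, and 1 of the listed genes at 0 in every library. The rest of the adipocyte list averaged under 1 FPKM in the follicle, so its 1 gene does not by itself show adipocytes. The part of any of these genes, or of cells that make them, in the level of Foxp1 was not tested.

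Among the relatives, 15 paralogs and cofactors were tested in the follicle, 9 lay above 0 and none was called. Dlx2, a paralog of Dlx5, had a log2 fold change of 1.12 (SE 0.38, limma adjusted p = 0.465) and Rxra 1.33 (SE 0.71, limma adjusted p = 0.465). Of the 3 other lineage factors tested, Zfp503 had 0.63 (SE 0.23, limma adjusted p = 0.465), Mef2d 0.37 and Mef2a -0.10. Without SA library 0, Dlx2, Rxra and Zfp503 were called like Foxp1.

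**Figure D4:**
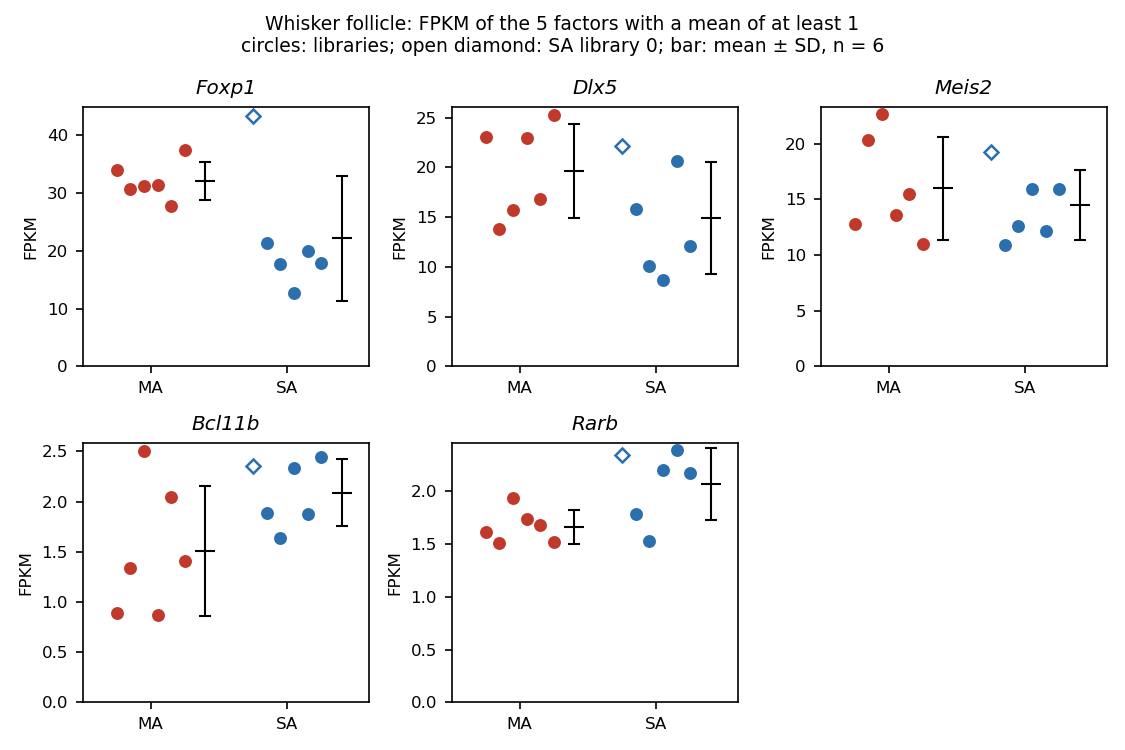
FPKM (vertical axis) of the 5 factors with a mean of at least 1 FPKM in the 12 whisker follicle libraries, MA left of SA, 1 point per library, with the mean and SD (n = 6). For Foxp1 the 6 MA libraries lie between 27.7 and 37.4, above 5 SA libraries and below SA library 0 (open diamond, 43.2).

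The MA effects in the striatum and the follicle were compared with each other as an interaction over all 24 libraries. Foxp2, Six3, Isl1 and Ebf1 passed the filter only through the striatum, and their values come close to the striatal effect itself. Of the 5 factors measured in both tissues, none was called and none had an unadjusted p under 0.05, against 0.0091% (1 gene) and 11.4% of the 10985 genes tested. The largest differences, striatal effect minus follicle effect, were -0.58 for Foxp1 (SE 0.43, limma adjusted p = 0.565) and 0.43 for Bcl11b (SE 0.31, limma adjusted p = 0.559), followed by -0.36 for Dlx5. Over the 5 factors the limma adjusted p ran from 0.559 to 0.981. Foxp1 in the follicle and Foxp1 in the striatum were therefore not shown to differ in their response, and without follicle SA library 0 the difference was -0.79 (SE 0.40, limma adjusted p = 0.188).

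Between the tissues in SA rats, 7 of the 9 factors were called higher in the striatum and none lower, where 42.5% of the 10952 genes tested were called higher and 32% lower. Of the 7, Foxp2, Six3, Isl1 and Ebf1 passed the filter only through the striatum, so their direction was fixed by the filter and they are given as values only. Of the 5 factors measured in both tissues, Bcl11b, Rarb and Meis2 were called higher, and the median gene was 0.24 higher in the striatum on the log2 scale. Bcl11b had 23.3, 47.7 and 63.2 FPKM (lowest, median and highest) in SA striatum, against 1.63, 2.11 and 2.44 FPKM in SA follicle, a log2 fold change of 3.81 (SE 0.22, limma adjusted p = 1.19e-09). Rarb had 14.9, 29.1 and 36.2 FPKM in SA striatum, against 1.53, 2.19 and 2.38 FPKM in SA follicle (3.13, SE 0.21, limma adjusted p = 4.51e-09). Meis2 had 53.6, 90.2 and 110 FPKM in SA striatum, against 10.9, 14.3 and 19.3 FPKM in SA follicle (2.44, SE 0.19, limma adjusted p = 3.14e-08). The tissues did not overlap for Bcl11b, Rarb or Meis2, but the share of all genes without overlap between tissues was not counted. Six3 had 7.30 to 14.4 FPKM in SA striatum, against at most 0.244 FPKM in SA follicle, and Foxp2 3.79 to 8.64 FPKM, against at most 0.0877 FPKM. Isl1 had 4.25 to 6.90 FPKM and Ebf1 1.22 to 3.10 FPKM in SA striatum, and both were listed at 0 in all SA follicles.

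Foxp1 and Dlx5 were the exceptions. Foxp1 had 12.7, 33.5 and 46.2 FPKM in SA striatum, against 12.7, 18.9 and 43.2 FPKM in SA follicle (0.44, SE 0.32, limma adjusted p = 0.220), a ratio between 0.834 and 2.2 at 95%. Dlx5 had 14.3, 18.2 and 21.8 FPKM in SA striatum, against 8.65, 13.9 and 22.2 FPKM in SA follicle (0.34, SE 0.21, limma adjusted p = 0.15), a ratio between 0.922 and 1.73. These ratios rest on the scale of FPKM, which summed to 348717 to 371477 in SA striatum and 1005812 to 1524572 in SA follicle libraries. Quantile normalization gave 0.48 for Foxp1 and 0.18 for Dlx5, and a common median 0.02 and -0.08. Equal sums were not tried. In MA rats both estimates lay just below 0, at -0.14 for Foxp1 and -0.03 for Dlx5, while Bcl11b, Rarb and Meis2 were called higher in MA striatum as well, as were 41.4% of the 10953 genes tested there. Foxp1 was called higher in SA striatum only without follicle SA library 0 (0.65, SE 0.29, limma adjusted p = 0.0467). The relatives went both ways: of 18 paralogs and cofactors tested, 9 were called higher and 5 lower in SA striatum, among them Rarg, the retinoic acid receptor of epidermis (-3.95), and Dlx3, the Dlx gene of hair matrix and epidermis (-7.54), on the lower side, and Meis3 (3.70) on the higher. Of 7 other striatal lineage factors tested, 5 were called higher and none lower. Only 3 of this list, Zfp503, Mef2d and Mef2a, passed the filter in the follicle. Sox8, Zfp521 and Sp9, with the smallest p, passed it only through the striatum, so their direction was fixed by the filter.

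**Figure D5:**
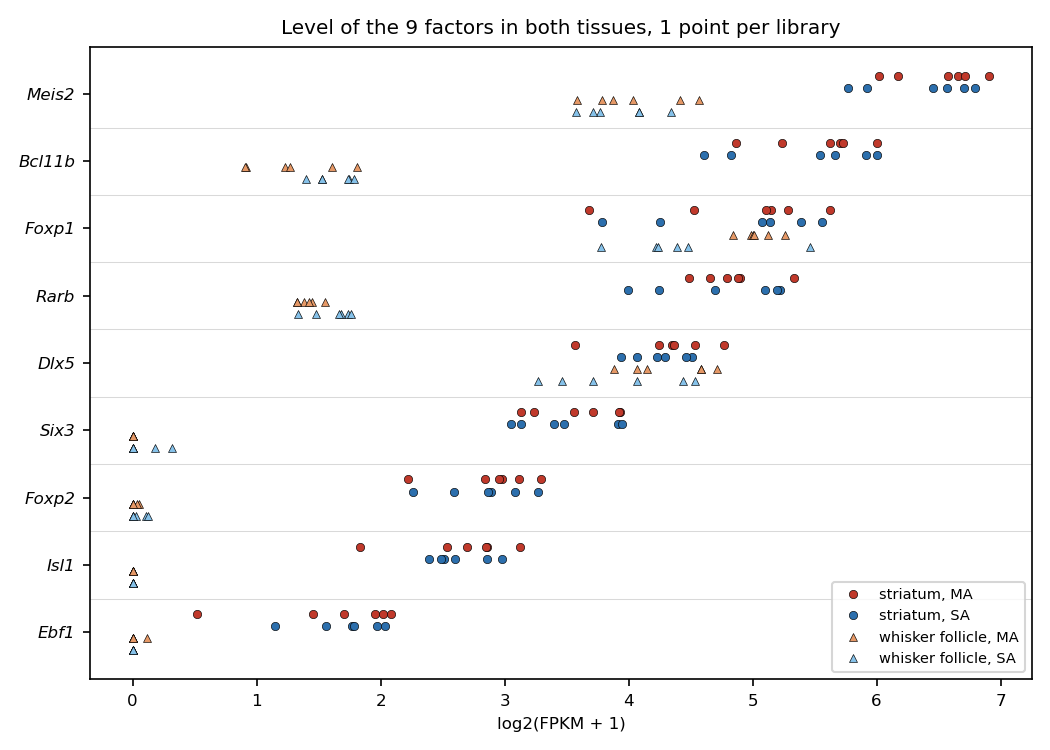
Level of each factor on log2(FPKM + 1) (horizontal axis), 1 point per library, with MA above SA and striatum (circles) above whisker follicle (triangles) within each row. The points of Foxp1 and Dlx5 overlap between tissues, while Isl1 is at 0 in all follicle libraries and Six3, Foxp2 and Ebf1 are at or close to 0 there.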

How the data were processed

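PolyA RNA of striatum and whisker follicles from 6 MA and 6 SA self-administered rats was sequenced in 24 libraries. The authors deposited 1 table of FPKM values with 17711 rows, 134 of which carry more than 1 symbol. The paper names Cutadapt, TopHat2 with rn6 and Cufflinks, while the submitters' processing notes name rn6, Cufflinks 2.2.1, STAR 2.6.0c and bcl2fastq. Which annotation was used is not given in the sources used here. Columns were assigned to tissue and treatment by name and none was left out. Their index of 0 to 5 is not tied to a rat number, so libraries were unnumbered replicates and the tissues of a rat were not paired.

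Genes that averaged at least 1 FPKM over the libraries compared were put on the log2(FPKM + 1) scale and tested with limma 3.58.1 (R 4.3.3, trended empirical Bayes), with Benjamini-Hochberg adjustment over all genes tested, 2-sided. Single genes and within-library ratios also had an exact permutation test (Python 3.11.15) that enumerated the 924 ways to divide 12 libraries, unadjusted. The tests were tested on simulated data with known changes. The members, gene lists and tests were chosen with earlier results of these data known. All members are named, and of each other list up to 3 genes with the smallest p, and for each factor the gene most like it, apart from a gene that is not reported here. Chat, Ngfr and Oxt were picked with their values in view. A list is described by its counts and median. Alternatives tried were quantile normalization, medians set equal, pseudocounts of 0.5 and 0.1, a filter at a mean of 5 FPKM or none, a fit without trend, calls by adjusted p alone, MA in place of SA libraries for the tissues, and leaving out libraries. Starts, sequences and their coordinates are those of RefSeq on GRCr8 and were not joined to rn6 positions.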

Additional observations from a re-analysis of the deposited data

Results flagged for a closer look

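Among the 32 groups of 6 libraries in which a factor was measured above 0, 2 held a library far from the other 5 by Dixon's criterion. For normal values, chance alone picks out about 1 in 20 groups, a rate that does not hold for groups made mostly of zeros. Foxp1 in SA follicles had 43.2 FPKM in library 0, while the other 5 libraries had 12.7 to 21.4 FPKM. This is the library without which 1219 genes, Foxp1 among them, were called. Ebf1 in MA follicles had 0.0827 FPKM in library 0, the worth of about 1 fragment, and was listed at 0 in the other 5. A single value above 0 among zeros always meets the criterion.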

How the results depend on the processing

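Of 1439 alternative values, 1352 kept their direction and their side of the threshold, 57 reversed, 23 moved and 7 came past the threshold. Over the alternatives the members' limma adjusted p ran from 0.575 to 1.0 in the striatum and from 0.0130 to 0.995 in the follicle, and for the difference between tissues from 0.188 to 0.999. In the striatum, 0 genes were called with a mean FPKM of at least 5 or without MA libraries 3 and 4, 3 without MA libraries 4 and 5 and SA libraries 3 and 4, and 0 to 4 when each library was left out, the 4 without MA library 5. In the follicle, leaving out 1 library gave 0 to 1219 calls, the 1219 without SA library 0. For the difference between tissues, 2 genes were called with a pseudocount of 0.1, 3 without the filter, 0 with a mean FPKM of at least 5, and 1 to 1240 with 1 library left out, the 1240 without follicle SA library 0. Without that library Dlx2 (-1.71) and Lmo4 (0.67) were called in this comparison.

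In the striatum the signs of the small estimates were not stable. Isl1 was -0.0032 with a common median. Without the 4 low libraries Bcl11b was -0.019, Foxp1 -0.0028, Foxp2 -0.010, Rarb -0.076 and Ebf1 0.051, and Foxp1 was -0.050 with the medium spiny neuron score in the fit. With 1 library left out, Bcl11b ran from -0.066 to 0.23, Foxp1 from -0.19 to 0.27, Foxp2 from -0.040 to 0.21, Rarb from -0.050 to 0.20, Ebf1 from -0.20 to 0.13, Isl1 from -0.084 to 0.17, Dlx5 from -0.039 to 0.20 and the log2 ratio of Foxp2 over Foxp1 from -0.24 to 0.15. In the follicle the hair keratin score in the fit gave -0.068 for Dlx5 and -0.13 for Mef2d, and Mef2a ran from -0.21 to 0.11 and Foxp1 from 0.48 to 0.82 with 1 library left out. Between tissues, Dlx5 was -0.081 with a common median and Foxp1 and Dlx5 were -0.14 and -0.027 in MA libraries. The difference of the MA effect was -0.017 for Meis2 with quantile normalization and, with 1 library left out, -0.097 to 0.13 for Meis2, -0.011 to 0.24 for Foxp2, -0.22 to 0.11 for Ebf1 and -0.084 to 0.17 for Isl1. The cause was not tested.

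No paired analysis was possible because the columns carry an index with no link to rat numbers. The planned ratio of Dlx5 over Dlx6 could not be computed, since Dlx6 had no row. FPKM values hold no counts, so the error of each is known only from the spread of 6 libraries. That spread was wide for Foxp1 and Bcl11b, and ratios of MA over SA between 0.601 and 1.73 for Foxp1 and between 0.729 and 1.57 for Bcl11b lie within the 95% intervals in the striatum. Values of Foxp2, Six3 and Ebf1 in the follicle rest on a few fragments and were below the filter.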
